A study of Mus musculus with 8 samples.

Results

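The genes described here build the microvillus core and the keratin network of intestinal tuft cells. They are the 10 genes Avil, Vil1, Espn, Ezr, Pls1, Krt8, Krt18, Krt19, Krt20 and Krt23, taken by symbol from a table of 35199 genes, and all 10 were found. Tuft cells were sorted as live, EPC-high, ZSgreen-positive cells from the jejunum of Dclk1-DTR-ZSgreen mice. In this line a BAC carries the diphtheria toxin receptor and the green reporter within Dclk1, so every animal of both groups carried the transgene, and the sort selected on Dclk1 promoter activity. The mice, backcrossed to C57BL/6J, were 8 to 10 weeks old at pump implantation, and the labels do not give their sex. Over 7 days the pumps released either scopolamine, which blocks muscarinic acetylcholine receptors without subtype preference, at 0.5 mg/kg/day (4 mice) or sodium chloride (sham, 4 mice). Each library came from 1 mouse and from 3000 cells (replicate 1 of each group) or 4000 cells (the others), and is named by its group and a replicate number from 1 to 4 that pairs no animals, and values per group are given in the order of replicates 1 to 4. For these genes the comparison asks whether the structural apparatus of the cell differs.

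Tuft cells carry a bundle of long, thick apical microvilli whose actin rootlets reach deep into the cytoplasm. Villin (Vil1) and its relative advillin (Avil) bind, cap and bundle actin filaments. Espin (Espn) and plastin 1 (Pls1, also called fimbrin) cross-link filaments into tight bundles, and ezrin (Ezr) ties the bundle to the plasma membrane. Keratins form intermediate filaments as obligate pairs of a type II and a type I chain. In simple intestinal epithelium the main type II chain is Krt8, and the type I chains are Krt18, Krt19 and Krt20, with Krt20 typical of mature villus cells. Avil, Krt18 and Krt23 are known tuft cell markers within the gut epithelium, whereas Vil1, Pls1, Ezr, Krt19 and Krt20 are also used by absorptive enterocytes, the neighbouring cells with a brush border.

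Upstream sequence is shown for the microvillus gene of highest level, Avil, and for the member with the largest ratio of highest to lowest library, Krt20. RefSeq promoter windows on GRCm38.p6 were matched by symbol for 9 of 10 members in 11 windows, and Krt19 had no entry. The 120 bases before the start site are given 5′ to 3′ on the gene's strand, from chr10:127000589-127000708 (plus strand) for Avil and chr11:99438154-99438273 (minus strand) for Krt20, and capitals mark the octamer core ATGCAAA or its reverse complement TTTGCAT and the TATA box TATAAA.
Avil: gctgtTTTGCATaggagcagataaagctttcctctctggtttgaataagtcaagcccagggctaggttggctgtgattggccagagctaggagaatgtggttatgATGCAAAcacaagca
Krt20: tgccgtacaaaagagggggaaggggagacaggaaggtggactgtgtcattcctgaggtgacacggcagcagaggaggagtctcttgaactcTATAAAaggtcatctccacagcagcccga
The octamer is the motif of POU-domain factors, a family that includes Pou2f3, the factor tuft cells require. The full octamer has a further T after the core, and the search did not ask for it. Neither match in Avil has that T, so neither is a full octamer. Within the 250 bases before the start, on both strands, the octamer core was present in 1 of 11 member windows, that of Avil, where it occurred at bases 115 to 109 and again at bases 15 to 9 before the start. It was present in 4.12% of all 32851 windows. The TATA box was present in 1 of 11, that of Krt20, at bases 29 to 24 before the start, against 12.4% of all windows. CCAAT was found for Avil and Espn (33.9% of all windows) and GGGCGG for Espn, Ezr and Vil1 (32.7%), and no match overlapped that of another motif. The motifs were chosen after the sequences had been seen, and a match describes letters, not binding.

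Total estimated counts ran from 14343362 to 20857433 with scopolamine and from 25769940 to 41428916 in sham, so depth followed the group. Sham replicates 1 and 3 were amplified from 200 pg of RNA over 15 cycles, and the other 6 libraries from 1000 pg over 10 cycles. Tuft markers were plentiful, though the sort itself selected on Dclk1, which is among those listed. The list was also chosen with earlier results of these data known. All 20 listed tuft markers had counts in every library, and their summed level was 14782 to 24843 CPM (counts divided by the TMM-scaled library total, times 1e6) with scopolamine and 18752.5 to 21942 CPM in sham. Markers of other epithelial cells were present as well, with enterocyte markers at 2662 to 7638 CPM summed over 20 genes, goblet and Paneth markers at 392 to 3643 CPM over 14 genes and enteroendocrine markers at 183 to 1533 CPM over 20 genes. Stromal markers summed to at most 14.5 CPM.

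With scopolamine, none of the 10 genes differed from sham past the threshold. In edgeR, 0 of 10 had a Benjamini-Hochberg adjusted p under 0.1, beside 0 of 12849 genes tested (0%). DESeq2 called 0 of the 10 and 190 of 14462 genes with an adjusted p (1.31%), and limma-voom called 0 of the 10. At an unadjusted p under 0.05, 2 members, Krt19 and Pls1, were higher with scopolamine and 0 lower, beside 3.33% of all genes higher and 2.66% lower. The groups overlapped for all 10 members, where 1.92% of genes lay entirely higher and 1.95% entirely lower with scopolamine. In mean, 4 members were higher and 6 lower, and their median log2 fold change was -0.042, beside -0.011 over all genes tested. All 10 members passed the filter on low counts, and p-values were adjusted over the 12849 genes that did. Exact permutation tests of log2 CPM compare 4 mice with 4 and cannot give a p below 0.0286.

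**Figure D1:**
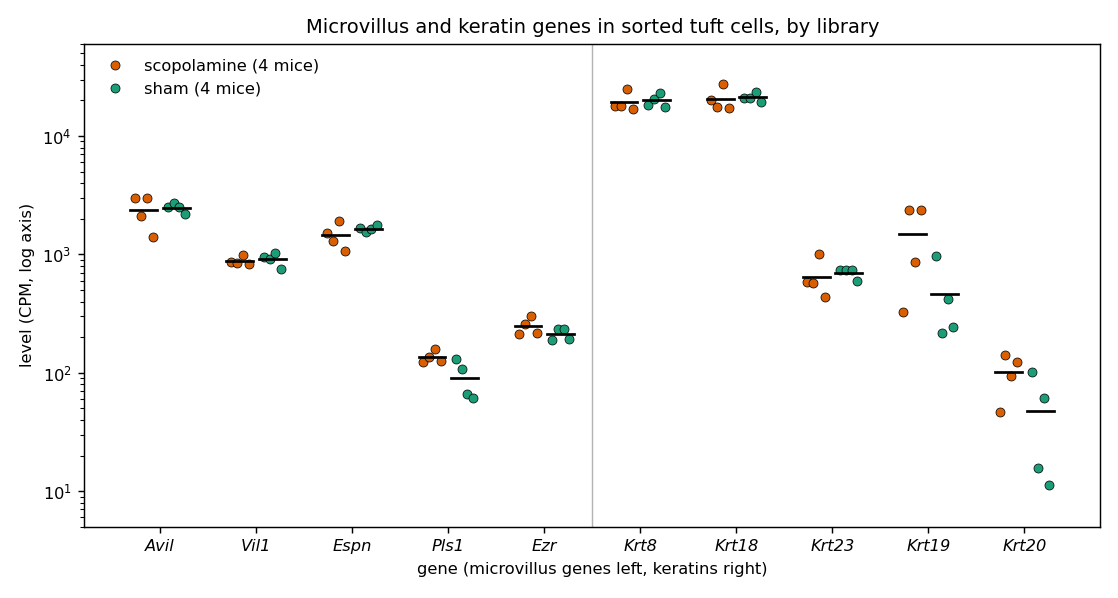
Level of each member in CPM (log axis) in the 4 scopolamine libraries (orange) and the 4 sham libraries (green), with each point 1 mouse and the bar the group mean. Krt8 and Krt18 lie between 16813 and 27409 CPM in every library, while the highest library exceeds the lowest 11.0-fold for Krt19 and 12.6-fold for Krt20.

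**Figure D2:**
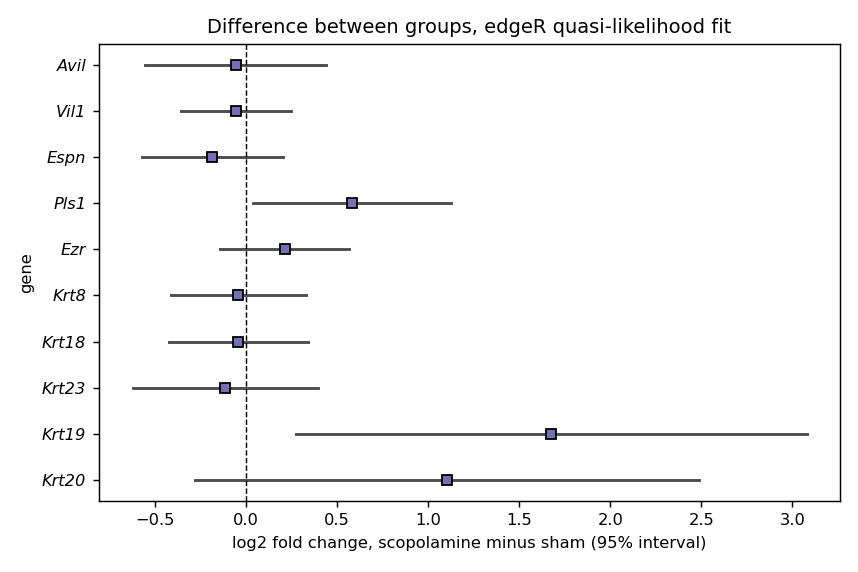
Log2 fold change (scopolamine minus sham, squares) of each member with its 95% interval (lines) from the edgeR fit. The intervals of Krt19 and Pls1 lie above 0 before adjustment for multiple testing, and those of the other 8 genes include 0.

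Krt18 and Krt8 were by far the most abundant of these transcripts. Compared per kb of merged exon length, the mean over 8 libraries was 14537 CPM per kb for Krt18, 10075 for Krt8, 716 for Avil, 525 for Krt19, 429.9 for Krt23, 253 for Vil1, 188 for Espn, 70.2 for Ezr, 38.5 for Krt20 and 29.2 for Pls1. Most neighbours in this order were ranked alike in all 8 libraries. The exceptions were Avil above Krt19 (6 of 8 libraries), Krt19 above Krt23 (3 of 8) and Krt20 above Pls1 (5 of 8), so those levels do not differ beyond their spread. Krt19 was also above Vil1 in 4 of 8 libraries and above Espn in 5 of 8. Its mean was 799 CPM per kb under scopolamine and 250.1 CPM per kb for sham, but its place in the order varied between libraries within each group. Every other pair of members was ranked alike in all 8 libraries. The length counts every annotated exon, which lowers the value of a gene with many isoforms such as Espn, at 8272 bases. Krt8 and Krt18 together took 3.44% to 5.17% of all counts of a library, and each lay above 99.99% of genes with a count.

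Krt8 (chromosome 15, 101996698 to 102004482 of GRCm38) and its partner Krt18 (chromosome 15, 102028180 to 102032027) are neighbouring genes, and their transcripts kept a steady balance. Krt8 was measured at 18109, 17921.5, 24912 and 16813 CPM with scopolamine and at 18297, 20677, 23301 and 17779 CPM in sham. Krt18 was measured at 20201, 17586, 27409 and 17130.2 CPM with scopolamine and at 21008, 20948, 23391 and 19447 CPM in sham. In both genes scopolamine replicate 3 was the highest library and scopolamine replicate 4 the lowest, and the groups overlapped. The log2 fold change was -0.042 for Krt8 (standard error 0.17, 95% interval -0.41 to 0.33, adjusted p = 0.989 in edgeR). For Krt18 it was -0.043 (standard error 0.17, 95% interval -0.42 to 0.34, adjusted p = 0.99 in edgeR). Both directions turned under some settings, and without scopolamine replicate 3 the values were -0.19 for Krt8 and -0.21 for Krt18, neither with an unadjusted p under 0.05. The ratio of Krt18 to Krt8, per kb, stayed between 1.34 and 1.56 in the 8 libraries, with group means of 1.44 ± 0.088 under scopolamine and 1.45 ± 0.094 for sham (SD, n = 4). A pseudogene copy, Krt8-ps, was listed at 2.25 to 27.9 CPM, highest in scopolamine replicate 3. Reads of Krt8 and its copy may have been split between them.

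Krt19 (chromosome 11, 100140810 to 100148665), a small type I chain without a tail domain, differed 11.0-fold between its lowest and highest mouse. It was measured at 329, 2370.2, 865 and 2366 CPM with scopolamine and at 977, 215, 419 and 245 CPM in sham. Scopolamine replicates 2 and 4 stood high, sham replicate 1 came next, and scopolamine replicate 1 lay below 2 of the sham mice. Group means were 1483 ± 1046 CPM under scopolamine and 464 ± 353 CPM for sham (SD, n = 4). The log2 fold change was 1.68 (standard error 0.63, 95% interval 0.27 to 3.08), with an unadjusted p = 0.0235 and an adjusted p = 0.812 in edgeR, and the exact permutation test gave p = 0.143 (two-sided). With each mouse left out in turn the log2 fold change was lowest at 1.34 (scopolamine replicate 2 left out) and highest at 2.33 (sham replicate 1 left out), and the unadjusted p was under 0.05 in 3 of those 8 fits. As a share of the type I members per kb, Krt19 held 1.21%, 9.16%, 2.31% and 9.42% with scopolamine and 3.36%, 0.765%, 1.33% and 0.939% in sham.

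Krt20 (chromosome 11, 99428403 to 99438150), the type I chain of differentiated villus cells, followed nearly the same order of mice at a lower level. It was measured at 46.5, 143, 93.3 and 123 CPM with scopolamine and at 101, 15.7, 61.1 and 11.3 CPM in sham. Sham replicates 2 and 4 were lowest by a wide margin, and sham replicate 1 was above 2 of the scopolamine libraries. Scopolamine exceeded sham in mean by 1.10 on the log2 scale (standard error 0.63, 95% interval -0.28 to 2.49, adjusted p = 0.817 in edgeR), and the exact permutation test gave p = 0.171 (two-sided). With each mouse left out in turn the Krt20 value was lowest at 0.78 (sham replicate 4 left out) and highest at 1.78 (sham replicate 1 left out, unadjusted p = 0.0138, adjusted p = 0.430 in edgeR), and limma-voom gave 1.61 over all 8 mice (unadjusted p = 0.0245, adjusted p = 0.616). Krt20 made up 0.165% to 0.530% of the type I members with scopolamine and 0.0418% to 0.334% in sham. Among all genes tested, the spread of log2 CPM over the 8 libraries exceeded that of 81.0% of genes for Krt19 and 80.7% for Krt20.

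In sham, both keratins were higher in the 2 libraries made from less RNA. The sham libraries made from 200 pg had 977 and 419 CPM of Krt19 and 101 and 61.1 CPM of Krt20, and those made from 1000 pg had 215 and 245 CPM of Krt19 and 15.7 and 11.3 CPM of Krt20. All 4 scopolamine libraries were made from 1000 pg. Every one of them was above both sham libraries of that input for 3 of 10 members, Krt19, Krt20 and Pls1, beside 9.07% of all genes tested, and 0 of 10 members lay below, beside 9.25%. This separation was looked at after the values were seen. Without the libraries made from 200 pg, the log2 fold change of Krt20 was 2.89 (standard error 0.46, unadjusted p = 1.53e-04, adjusted p = 0.158 in edgeR) and that of Krt19 was 2.66 (standard error 0.74, unadjusted p = 0.00607, adjusted p = 0.417 in edgeR). Over all alternatives the adjusted p of Krt20 ran from 0.158 to 0.999 and that of Krt19 from 0.217 to 0.999. By the letter that opens each mouse's ID, which the sources do not explain, Krt19 was 329 to 2370.2 CPM in 3 scopolamine mice and 977 CPM in 1 sham mouse of series M, and 2366 CPM in 1 scopolamine mouse and 215 to 419 CPM in 3 sham mice of series N. With that letter as a covariate the log2 fold change was 1.65 for Krt19 and 0.98 for Krt20.

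Most markers of enterocytes, goblet and Paneth cells and enteroendocrine cells were higher in mean with scopolamine as well. Of 10 stem and cycling markers 4 were higher and 6 lower, with 0 called in edgeR. An unadjusted p under 0.05 in edgeR was found for 2 of the higher ones and 0 of the lower ones, beside 3.33% and 2.66% of all genes tested. Of the 20 enterocyte markers 20 were higher, with a median log2 fold change of 1.64, beside 6305 of 12849 genes tested and a median of -0.011. In edgeR 0 of the 20 were called, and in DESeq2 2 (Anpep and Slc5a1), beside 1.31% of genes in DESeq2. An unadjusted p under 0.05 in edgeR was found for 8, beside 3.33% of genes tested higher with scopolamine. The marker lists were chosen with earlier results of these data known. Summed, the 20 enterocyte markers were at 3487, 7638, 6587 and 3980.4 CPM with scopolamine and 6912, 2677, 2812 and 2662 CPM in sham. Fabp1, a fatty acid binding protein of the absorptive cell, supplied most of that sum, and the other 19 markers, a set formed after the values were seen, summed to 867, 3329.7, 2007 and 1851 CPM with scopolamine and to 1640.2, 317, 531 and 284 CPM in sham. In this smaller set sham replicate 1 was again the highest sham library and sham replicates 2 and 4 the lowest. Lct, Mep1a and Treh were at 0 in 2, 3 and 2 libraries, and no enterocyte marker was at 0 in all. Of the 20 tuft markers, 16 were lower in mean with scopolamine, beside 6544 of 12849 genes tested, and 0 were called in edgeR. Among them 1, Hpgds, was lower at an unadjusted p under 0.05 and in every scopolamine library, beside 2.66% and 1.95% of genes tested. The summed level of the tuft markers was lowest in scopolamine replicates 2 and 4, at 15580.0 and 14782 CPM, the libraries in which Krt19 was highest. Goblet and Paneth markers were higher in mean for 13 of 14 tested, with summed levels of 737 to 3643 CPM under scopolamine and 392 to 1478 CPM for sham. Enteroendocrine markers were higher in mean for 13 of 16 tested, with summed levels of 485 to 1137 CPM under scopolamine and 183 to 1533 CPM for sham, and DESeq2, which filters genes by its own rule, called 0 of the goblet and Paneth markers and 1 enteroendocrine marker, Scg3, which had not passed the filter for the edgeR test. The part of these markers in the keratin levels was not tested, and in bulk libraries more cells of a type and more RNA per cell cannot be told apart.

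**Figure D3:**
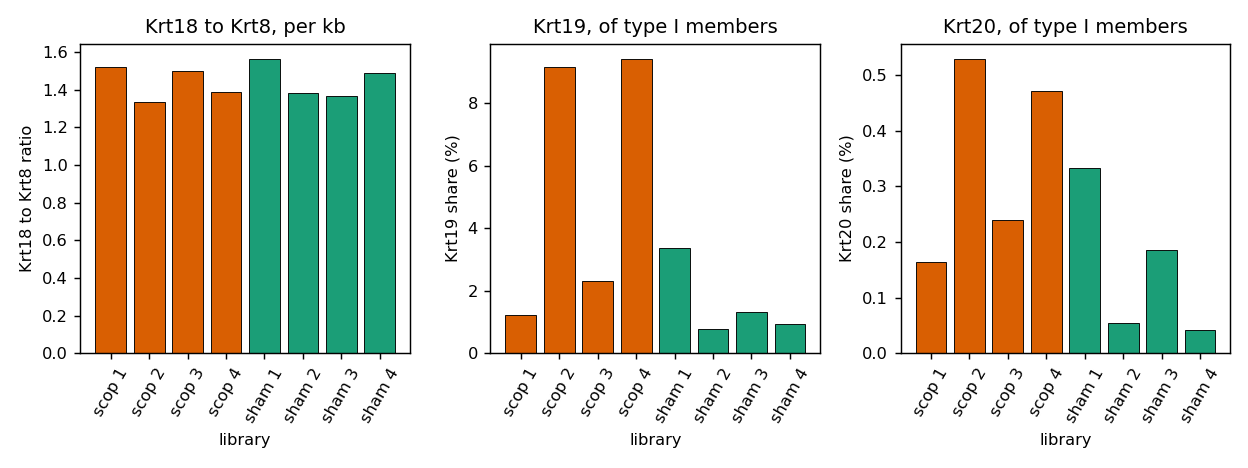
Balance of keratin transcripts within each library, with bars for 4 scopolamine (orange) and 4 sham (green) libraries. The ratio of Krt18 to Krt8 per kb stays between 1.34 and 1.56, whereas the share of Krt19 among the type I members runs from 0.765% to 9.42% and that of Krt20 from 0.0418% to 0.530%.

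Krt23 (chromosome 11, 99477974 to 99493137), the type I keratin that marks tuft cells in the gut, was measured at 581, 570.0, 1001 and 434 CPM with scopolamine and at 734, 734, 735 and 594 CPM in sham. The scopolamine group enclosed the sham group, with scopolamine replicate 3 at the top and replicate 4 at the bottom. Krt23 had a log2 fold change of -0.11 (standard error 0.23, 95% interval -0.62 to 0.40, adjusted p = 0.967 in edgeR), and without scopolamine replicate 4 it was 0.031, the opposite sign. Without scopolamine replicate 3 it was -0.41 (unadjusted p = 0.0270 in edgeR, not past the adjusted threshold). Krt23 supplied 2.05% to 3.16% of the type I members per kb, a narrow range beside that of Krt19.

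Avil (chromosome 10, 127000709 to 127020994), the villin relative used by tuft cells, was measured at 3012, 2117, 3011 and 1399 CPM with scopolamine and at 2503, 2716, 2494 and 2205 CPM in sham. Scopolamine replicate 4 was lowest and scopolamine replicates 1 and 3 highest, so the scopolamine mice lay on both sides of the sham mice. Avil had a log2 fold change of -0.056 (standard error 0.22, 95% interval -0.55 to 0.44, adjusted p = 0.99 in edgeR), and without scopolamine replicate 4 it was 0.12. Vil1 (chromosome 1, 74409376 to 74435559), the villin shared with enterocytes, was measured at 859, 851, 997 and 825 CPM with scopolamine and at 961, 917, 1029.9 and 760.3 CPM in sham. Its libraries differed by at most 1.35-fold, the narrowest range of the members, and the groups overlapped. The log2 fold change of Vil1 was -0.055 (standard error 0.14, 95% interval -0.36 to 0.25, adjusted p = 0.977 in edgeR). Avil exceeded Vil1 in every library per kb, by a ratio from 1.77 in scopolamine replicate 4 to 3.67 in scopolamine replicate 1. Its group means were 2.80 ± 0.811 under scopolamine and 2.84 ± 0.266 for sham (SD, n = 4). Avil shares 165 exonic bases with Tsfm, Vil1 49 with Usp37, Krt8 101 with Gm36026 and Ezr 4 with Sytl3, each on the opposite strand, and reads there cannot be assigned because use of strand is not stated.

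Espn (chromosome 4, 152120331 to 152152371), the actin cross-linker of thick bundles, was measured at 1532, 1307, 1911 and 1065 CPM with scopolamine and at 1658, 1549, 1640.3 and 1768 CPM in sham. Of the scopolamine mice, 3 lay below every sham mouse and replicate 3 lay above them all. Espn had a log2 fold change of -0.19 (standard error 0.17, 95% interval -0.57 to 0.20, adjusted p = 0.894 in edgeR), and it stayed negative in all 18 alternatives. It was -0.35 without scopolamine replicate 3 (unadjusted p = 0.0413, adjusted p = 0.891 in edgeR) and -0.072 without scopolamine replicate 4. Pls1 (chromosome 9, 95752642 to 95845311), the plastin of intestinal microvilli, was measured at 124, 136, 160.2 and 125 CPM with scopolamine and at 129.7, 107, 66.3 and 61.1 CPM in sham. Sham replicates 3 and 4 were the lowest libraries, and sham replicate 1 lay within the scopolamine range. Pls1 had a log2 fold change of 0.58 (standard error 0.25, 95% interval 0.040 to 1.13), with an unadjusted p = 0.0376 and an adjusted p = 0.812 in edgeR, and the exact permutation test gave p = 0.0857 (two-sided). With each mouse left out in turn it was lowest at 0.43 (sham replicate 4 left out) and highest at 0.80 (sham replicate 1 left out), and the unadjusted p was under 0.05 in 4 of those 8 fits. The sham mouse of ID series M had 129.7 CPM, within the 124 to 160.2 CPM of the scopolamine mice of that series, and the sham mice of series N had 61.1 to 107 CPM beside 125 CPM in 1 scopolamine mouse. With the series as a covariate the log2 fold change of Pls1 was 0.40 (unadjusted p = 0.136, adjusted p = 0.868 in edgeR), and with amplification cycles it was 0.70 (unadjusted p = 0.0538, adjusted p = 0.805 in edgeR).

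Ezr (chromosome 17, 6738041 to 6782784), the membrane linker, was measured at 213, 260.2, 301 and 217 CPM with scopolamine and at 189, 237, 236 and 194 CPM in sham. The groups overlapped, with scopolamine replicates 2 and 3 above every sham library. Ezr had a log2 fold change of 0.21 (standard error 0.16, 95% interval -0.15 to 0.57, adjusted p = 0.869 in edgeR), and it was positive in all 18 alternatives, with the lowest value, 0.10, without scopolamine replicate 3. Of the 5 microvillus members summed per kb, Avil supplied 47.3% to 62.9%, Vil1 17.1% to 26.7%, Espn 13.1% to 18.6%, Ezr 4.42% to 7.56% and Pls1 1.30% to 3.69%. The lowest Avil share and the highest Vil1, Ezr and Pls1 shares were all in scopolamine replicate 4.

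The rest of the microvillus and filament apparatus was described through lists, and 0 of their 49 tested genes were called by edgeR. At an unadjusted p under 0.05 in edgeR, 4 of the 49 were higher and 1 lower, beside 3.33% of all genes tested higher and 2.66% lower. DESeq2 called 0 of the listed genes, with 11 of 49 under an unadjusted p of 0.05, beside 9.92% of all genes tested. Of 6 other villin and gelsolin family genes, 5 were tested, 3 higher and 2 lower in mean. Capg, an actin capping protein, and Flii were the most abundant per kb, at 137 ± 20.8 and 133 ± 34.8 CPM under scopolamine and 152 ± 33.4 and 116 ± 27.5 CPM for sham (SD, n = 4). Svil, which encodes the membrane-associated supervillin, was measured at 63.7, 58.5, 75.3 and 45.7 CPM with scopolamine and at 72.6, 60.1, 122 and 106 CPM in sham. The scopolamine minus sham difference was -0.57 on the log2 scale (standard error 0.25, unadjusted p = 0.0471, adjusted p = 0.812 in edgeR). Its groups overlapped through sham replicates 1 and 2.

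Of 14 actin genes and actin bundling, capping or nucleating genes, 12 were tested, with a median log2 fold change of 0.42, 8 higher and 4 lower. The cytoplasmic actins themselves had similar means, at 6562 ± 1197 CPM for Actb and 3131 ± 463 CPM for Actg1 with scopolamine and 6680.3 ± 227 and 3200.4 ± 188 CPM in sham (SD, n = 4). Tmod3, a tropomodulin that caps the slow-growing filament end, was measured at 66.3, 47.5, 61.6 and 69.9 CPM with scopolamine and at 46.9, 46.5, 27.7 and 37.8 CPM in sham. Every scopolamine library was above every sham library for Tmod3, by a narrow gap, and its log2 fold change was 0.63 (standard error 0.23, unadjusted p = 0.0188, adjusted p = 0.812 in edgeR). Eps8, which caps and bundles filaments at microvillus tips, was measured at 6.16, 35.0, 31.7 and 34.2 CPM with scopolamine and at 17.7, 3.40, 5.60 and 4.65 CPM in sham, which is 1.77 on the log2 scale (standard error 0.65, adjusted p = 0.812 in edgeR). As for Krt19, scopolamine replicate 1 was low and sham replicate 1 high. Lcp1, the plastin of leukocytes, was at 2.47 to 10.5 CPM with scopolamine and 0.507 to 3.06 CPM in sham (unadjusted p = 0.0422, adjusted p = 0.812 in edgeR). Over the 12 lymphocyte markers the summed level was 69.0 to 232.5 CPM with scopolamine and 59.3 to 287 CPM in sham, with 10 of 11 tested markers higher in mean and Cd3e, Cd8a, Gzmb, Trac, Itgae, Cd7 and Nkg7 each at 0 in some library, and their part in the Lcp1 level was not tested.

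Of the other ezrin-family genes and their scaffolds, 3 of 6 were tested. Slc9a3r1, the scaffold that binds ezrin in microvilli, was measured at 529.7 ± 123 CPM under scopolamine and 545 ± 30.7 CPM for sham (SD, n = 4), which is -0.042 on the log2 scale (standard error 0.17, adjusted p = 0.989 in edgeR). Nf2, which encodes merlin, was at 39.3 ± 0.801 and 39.7 ± 13.0 CPM (SD, n = 4). Of 14 myosin and intermicrovillar adhesion genes, all were tested, 9 higher and 5 lower in mean, with a median log2 fold change of 0.096. The tip-link cadherins Cdhr5 and Cdhr2 were the most abundant per kb, at 1858 ± 358 and 977 ± 334 CPM under scopolamine and 1762 ± 395 and 689 ± 193 CPM for sham (SD, n = 4), and their adjusted p was 0.977 and 0.813 in edgeR. Myo5b, a motor of apical membrane traffic, was measured at 68.8, 76.3, 87.7 and 67.0 CPM with scopolamine and at 33.1, 59.0, 69.1 and 46.1 CPM in sham. Only sham replicate 3 reached the scopolamine range, and the log2 fold change was 0.53 (standard error 0.24, unadjusted p = 0.0469, adjusted p = 0.812 in edgeR).

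Among 8 partners of intermediate filaments, 6 were higher and 2 lower in mean, with a median log2 fold change of 0.25. Eppk1, a keratin-binding plakin, was at 901 ± 242 CPM under scopolamine and 900.0 ± 69.8 CPM for sham (SD, n = 4), and Jup, the plakoglobin of desmosomes, at 260.4 ± 43.2 and 197 ± 39.9 CPM (SD, n = 4). Ppl, the plakin periplakin, was measured at 3.26, 3.23, 2.19 and 7.47 CPM with scopolamine and at 1.93, 0.681, 0.0248 and 0.776 CPM in sham, where replicate 3 lay below the floor of 3 counts. All scopolamine libraries were above all sham libraries for Ppl, as for 1.92% of genes tested, and its adjusted p was 0.812 in edgeR. The table holds 50 other keratin rows, of which 24 had a count and 7 were tested, 3 higher and 4 lower in mean. Krt7 was the most abundant of them, at 154 ± 27.8 CPM under scopolamine and 184 ± 42.3 CPM for sham (SD, n = 4), and Krt222 followed, at 18.7 to 56.9 CPM under scopolamine and 28.1 to 50.9 CPM for sham. Krt10, a type I chain of keratinising epithelium, was measured at 13.1, 6.88, 13.2 and 6.81 CPM with scopolamine and at 13.8, 18.5, 15.7 and 16.9 CPM in sham. Every scopolamine library was below every sham library for Krt10, by less than 1 CPM at the closest, and the log2 difference was -0.70 (standard error 0.39, adjusted p = 0.815 in edgeR).

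Likeness to Krt19 and to Krt18 over the 8 libraries was measured as the root mean square difference of log2 CPM after each gene's own mean was removed. For Krt19 the closest genes were Cldn15 (0.142), a claudin that forms sodium-permeable pores in villus tight junctions, then Ugt1a7c (0.264), a glucuronosyltransferase, and Ckb (0.274), brain-type creatine kinase. Cldn15 was measured at 29.8, 172, 74.5 and 220.1 CPM with scopolamine and at 77.8, 15.3, 34.8 and 22.6 CPM in sham. Like Krt19, it was highest in scopolamine replicates 2 and 4 and lowest in sham replicates 2 and 4. Krt20 was among the 100 genes closest to Krt19, at 0.602. For Krt18 the closest were Sdf4 (0.0739), Krt8 (0.0788) and Sh2d6 (0.0799), the last a listed tuft marker, and Vil1 and Espn were also among its 100 closest. These distances describe 8 libraries that differ in depth and RNA input as well as in treatment.

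**Figure D4:**
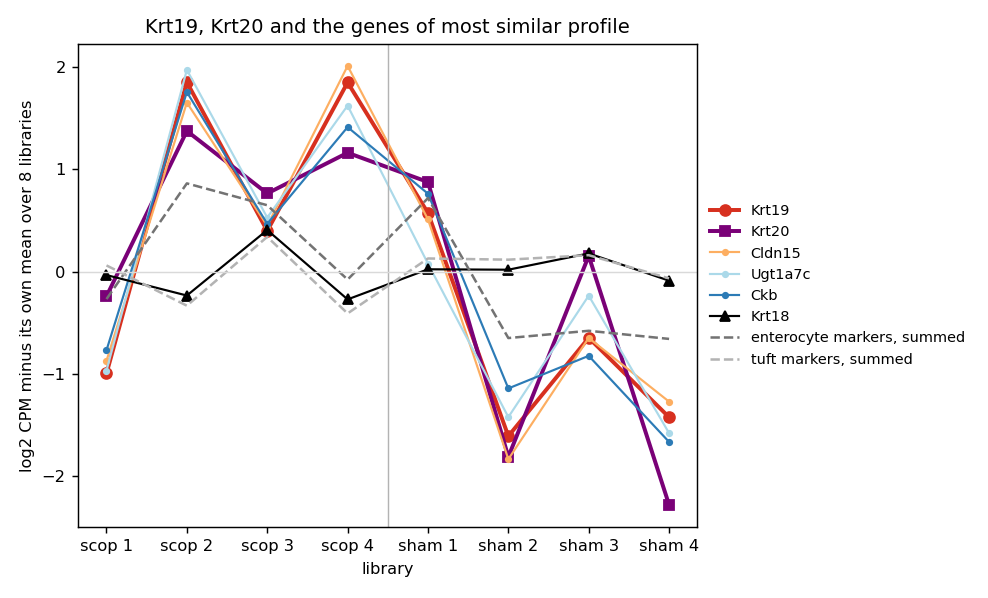
Log2 CPM minus its own mean over the 8 libraries (vertical axis) for Krt19, Krt20, Krt18, the 3 genes closest to Krt19 and the summed enterocyte and tuft markers, by library. Krt19, Krt20, Cldn15, Ugt1a7c and Ckb are high in scopolamine replicates 2 and 4 and low in sham replicates 2 and 4, while Krt18 stays near 0.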

How the data were processed

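Bulk RNA from sorted tuft cells of 4 scopolamine-treated and 4 sham mice was sequenced, 1 library per mouse. Per the methods and the submitters' processing notes, the authors ran bcl2fastq 2.20 with adaptor trimming, pseudoaligned reads to a GRCm38 transcriptome with kallisto 0.44.0, and deposited the estimated counts per gene from tximport without normalization. The annotation release and use of strand are not given in the sources used here. All values were whole numbers, so rounding changed 0 of them. RNA input and amplification cycles were taken from the study's source data.

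Groups were compared with edgeR 4.0.16 in R 4.3.3 (TMM, filterByExpr, quasi-likelihood test, Benjamini-Hochberg adjusted p under 0.1 over 12849 genes). CPM used TMM factors, and log2 CPM for exact permutation tests (70 assignments, two-sided) a prior count of 2. Exon lengths and coordinates are from GENCODE M21, in which 34902 symbols matched 1 gene. The comparison was repeated with DESeq2 1.42.0 and with voom in limma 3.58.1, and with other scaling, filters and thresholds, thinning to the smallest total, terms for RNA input and mouse ID series, and each replicate left out. The tests were tested on simulated data.

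A count of 3, used as floor, equals 0.0729 to 0.212 CPM and covers counting error only. No 2 libraries agreed within sampling noise (chi-square per degree of freedom at least 74.7 within groups). P-values measure the spread between mice. Members and lists were chosen with earlier results of these data known. Named genes are the members, in each related structural list (not the cell type marker lists) the 2 most abundant per kb, any gene called, under an unadjusted p of 0.05 or with groups that do not overlap, the 3 most abundant other keratins, and the 3 genes closest in profile to the member with the smallest p and to the most abundant member. Other genes named (Krt8-ps, Scin, Evpl and single markers of other cell types) were chosen after their values were seen.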

Additional observations from a re-analysis of the deposited data

Results flagged for a closer look

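Gaps within groups were examined for the 10 members and for ratios and shares formed from them, over 58 groups of 4 libraries, where chance alone sets about 1 group in 20 apart, and 2 groups held a library that stood apart. Krt8 was at 24912 CPM in scopolamine replicate 3 and at 16813 to 18109 CPM in the other scopolamine libraries, a gap of 0.84 of the group's range. Krt23 was at 594 CPM in sham replicate 4 and at 734 to 735 CPM in the other sham libraries, a gap of 0.987 of the range. Without scopolamine replicate 3 the log2 fold change of Krt8 was -0.19, and without sham replicate 4 that of Krt23 was -0.18, and neither passed the adjusted threshold.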

How the results depend on the processing

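None of the 10 members had an adjusted p under 0.1 in any of the 18 alternatives, and 167 of the 180 values kept the direction given in the report. Over all genes, the number called was 0 in edgeR but 190 with DESeq2 (142 higher, 48 lower), 9 without the sham libraries made from 200 pg and 5 with amplification cycles as a covariate. It ran from 0 to 2 with each replicate left out, with 1 call without scopolamine replicate 4 and 2 without sham replicate 1. Directions turned for 5 members of small change. Without the libraries made from 200 pg the log2 fold change was 0.052 for Vil1 and 0.0043 for Krt18, and with cycles as a covariate it was 0.074 for Vil1, 0.016 for Krt8 and 0.027 for Krt18. With each replicate left out it ran from -0.19 to 0.12 for Avil, -0.14 to 0.0042 for Vil1, -0.19 to 0.037 for Krt8, -0.21 to 0.029 for Krt18 and -0.41 to 0.031 for Krt23. The sign turned without scopolamine replicate 4 (Avil, Krt8, Krt18, Krt23), scopolamine replicate 2 (Krt18) and sham replicate 3 (Vil1, Krt8, Krt18), and the cause was not tested. With the mouse ID series as a covariate the log2 fold change was -0.35 for Avil, Espn and Krt23 and -0.13 for Krt18. With each library thinned to the smallest total count, Krt19 had a log2 fold change of 1.71, Krt20 of 1.15 and Pls1 of 0.63. No paired analysis was possible because the labels carry no replicate numbers, and the numbers 1 to 4 used here follow only the order of the samples within each group.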

Other observations

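Scin, the gelsolin-family protein adseverin, lay outside the rule for named genes and was chosen after its values were seen. It was measured at 2.60, 57.4, 15.3 and 38.2 CPM with scopolamine and at 14.3, 2.92, 0.768 and 9.10 CPM in sham, which is 2.07 on the log2 scale (adjusted p = 0.812 in edgeR). As for Krt19, scopolamine replicates 2 and 4 were highest and scopolamine replicate 1 was low. Evpl, the plakin envoplakin, was also chosen after its values were seen and was lower in mean with scopolamine, at 1.32 to 7.69 CPM with scopolamine and 1.90 to 11.1 CPM in sham (adjusted p = 0.895 in edgeR).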
